A study of Mus musculus with 17 samples.

Results

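Antioxidant enzymes were followed in mouse heart RNA as 10 genes: the superoxide dismutases Sod1, Sod2 and Sod3, the catalase gene Cat, the glutathione peroxidases Gpx1, Gpx3 and Gpx4, and Nqo1, Gclc and Txnrd1. They were picked by gene symbol from a deposited table of 28640 genes, and all 10 were found there and tested. The 17 libraries came from 5 hearts of mice without a tumour (control), 6 hearts of mice that carried a transplanted CT-26 tumour (tumour) and 6 hearts of mice that carried the tumour and swam (tumour_swim). CT-26 cells derive from a colon carcinoma of the mouse, and the series asks whether aerobic swimming alters what a growing tumour does to the heart. No tumour-free mice swam, and the labels give no strain, age, swimming schedule or tumour size. Nor do the labels state that each library is a different animal, and p-values then measure only how far these libraries spread, part of which may be technical.

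Superoxide dismutases turn superoxide into hydrogen peroxide, which catalase and the glutathione peroxidases then remove. The glutathione peroxidases spend glutathione, whose first and rate-limiting step of synthesis is catalysed by the enzyme that Gclc encodes, while thioredoxin reductase keeps thioredoxin in its reduced form. Nqo1, Gclc and Txnrd1 are textbook targets of the transcription factor Nrf2, and heart muscle, rich in mitochondria, depends on these enzymes to limit oxidant damage.

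Of the 10 genes, 4 encode selenoproteins, in which a UGA codon that would otherwise stop translation is read as selenocysteine. Each of these 4 coding sequences of GENCODE M21 held exactly 1 in-frame TGA before the stop codon, and each was annotated as a selenocysteine. The windows below are shown because Gpx3, the gene that passed the test between the groups, is among them. The TGA is in capitals, with 5 codons before and 4 after it in lower case, or 2 after it in Txnrd1, where the coding sequence ends. It is codon 47 in Gpx1, 73 in Gpx3, 129 in the Gpx4-201 transcript and 612 of 613 in Txnrd1-205.
Gpx1: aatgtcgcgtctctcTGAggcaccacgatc
Gpx3: aacgtagccagctacTGAggtctgacagac
Gpx4: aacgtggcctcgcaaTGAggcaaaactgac
Txnrd1: ctccagtctggctgcTGAggttaa

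The promoters of 8 of the 10 genes, all but Sod3 and Gclc, were matched in the RefSeq set for GRCm38.p6, as windows from 250 bases before to 50 bases after the transcription start. The core of the antioxidant response element through which Nrf2 acts, TGACNNNGC searched on both strands, was found for Sod1 and Txnrd1, which makes 2 of 8 genes against 13.99% of the 27025 genes in that set. Some genes have several windows: by window it was 2 of 13, beside 12.39% of all 32851. Sequence outside the windows was not searched, so elements further upstream would be missed. Both matches lay on the minus strand of the window, starting 56 bases before the start of Sod1 and 92 bases before that of Txnrd1. They are shown with the core in capitals and 10 bases on each side, as a match of letters and not as a mapped binding site.
Sod1: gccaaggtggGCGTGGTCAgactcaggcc
Txnrd1: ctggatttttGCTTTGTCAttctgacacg

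Levels are FPKM, that is reads per kilobase of exon scaled to the assigned reads of the library, and depth recovered from the values ran from 13.3 to 19.7 M reads per library. All 9 of 9 cardiomyocyte markers were present, with a summed level of 8784 to 12100 FPKM in control, 8652 to 10803 FPKM in tumour and 8073 to 9742 FPKM in tumour_swim, and none was called in any comparison. Control 1, control 4 and tumour_swim 1 stood apart. Long transcripts were under-represented in them, with a Spearman correlation across genes of exon length with the deviation from the group of -0.57, -0.61 and -0.57, and mitochondrial transcripts took 46.3% of reads in tumour_swim 1 against 16.9% to 30.8% in the 16 others. Within their groups the length trend ran about as far the other way in control 2 (0.61), control 3 (0.63) and tumour_swim 4 (0.53). Each value is relative to the other libraries of its group, so libraries low in the trend raise the values of the rest. Leaving out control 1 and control 4 keeps 2 controls that lay on the other side within the group. Comparisons of the 10 genes with control are given with and without control 1, control 4 and tumour_swim 1.

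In the fit to the deposited values of all 17 libraries Gpx3 was the only gene of the 10 that passed the test in any comparison. On the log2(FPKM + 1) scale of the test its level was 1.72-fold higher in tumour than in control hearts (95% interval 1.37 to 2.17) and 1.62-fold higher in tumour_swim than in control hearts (1.29 to 2.04), and all 12 hearts of tumour-bearing mice lay above all 5 controls. Of the other 9 genes none passed the test in any comparison, although Sod2, lower in tumour, came close to the threshold. Swimming was not accompanied by a detectable change in any of the 10.

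**Figure D1:**
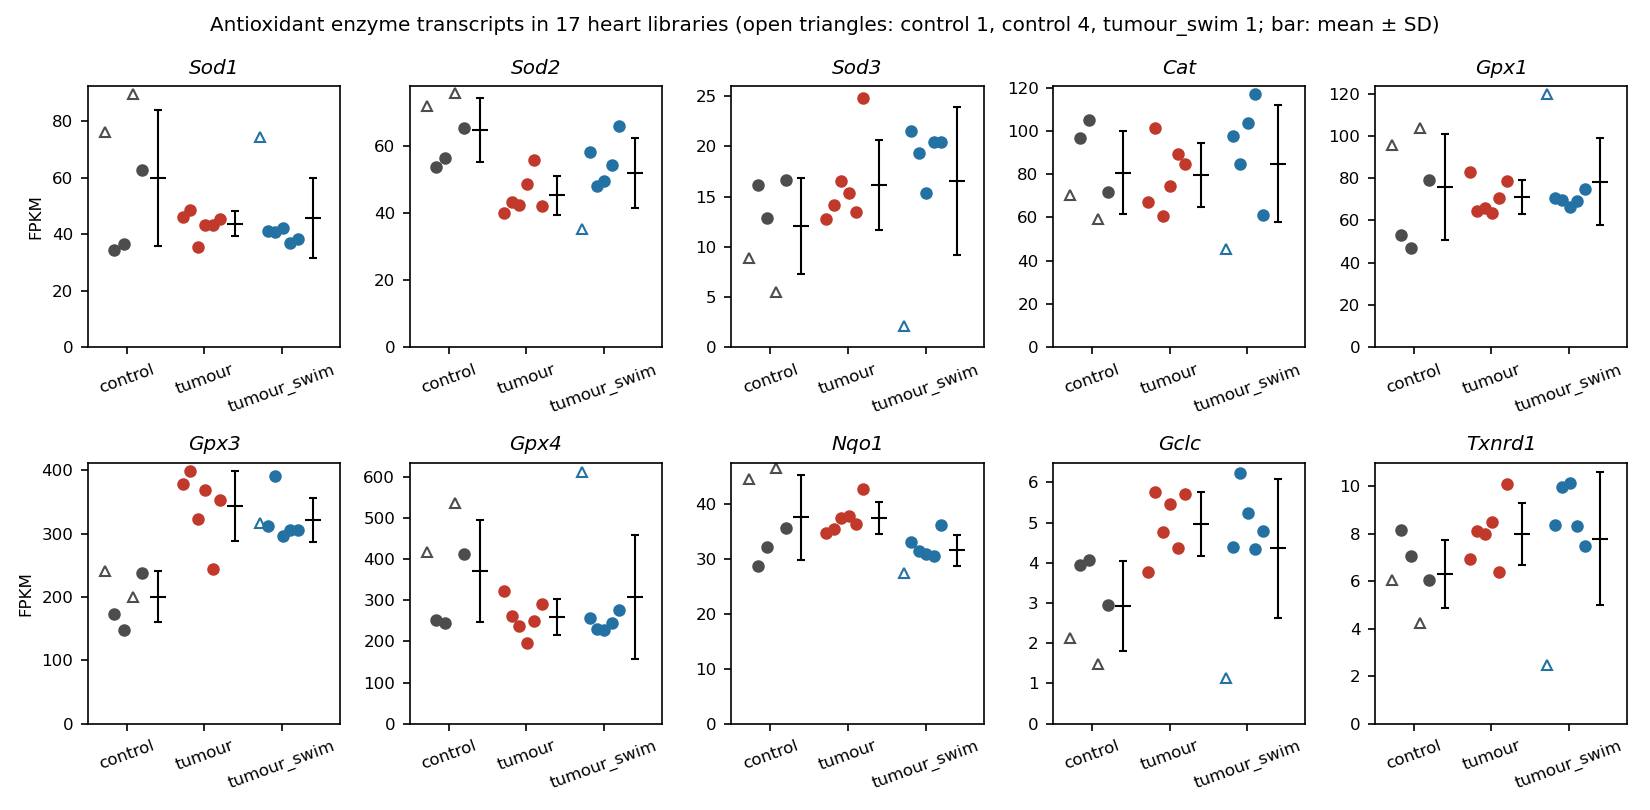
FPKM (vertical axis, starting at 0) of each antioxidant enzyme gene in every library of the control, tumour and tumour_swim groups; points are libraries, open triangles are control 1, control 4 and tumour_swim 1, and bars are the mean ± SD. Every tumour and tumour_swim point for Gpx3 sits above the highest control, 241 FPKM, while the other panels overlap.

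In the tumour against control comparison limma (two-sided, log2(FPKM + 1), p adjusted by Benjamini-Hochberg over 13709 genes) called 1 of the 10 genes higher and 0 lower at 0.05. Of all tested genes 8.47% were called, 5.14% higher and 3.33% lower (704 and 457 genes, or 947 and 964 with median-of-ratios scaling). Unadjusted p-values were under 0.05 for 3 of the 10 and for 3779 of the 13709. The groups did not overlap for 1 of the 10, which was higher, where 10.4% of all tested genes did not overlap, 7.59% on the higher and 2.82% on the lower side. The median log2 fold change of the 10 genes was 0.00, beside 0.14 for all tested genes, a background that moved to -0.02 when libraries were scaled by median of ratios. In tumour_swim against control, which shares the control libraries with the first comparison, 1 of 10 was called higher and 0 lower, and 1 of 10 beside 1694 of 13709 had an unadjusted p under 0.05. All genes gave 0.905% called, 0.554% higher and 0.350% lower (76 and 48 genes, or 184 and 186 with median-of-ratios scaling). Again 1 of 10, on the higher side, did not overlap, against 1.58% of all genes, 0.715% higher and 0.868% lower, and the median was 0.06, as for all genes. In tumour_swim against tumour limma called 0 of 10 genes, as it called 0% of all tested genes, with 0 of the 10 and 554 of all genes at an unadjusted p under 0.05, and 0 of 10 did not overlap against 0.372% of all genes, 0.146% higher and 0.226% lower. The median there was -0.03, beside -0.08 for all genes.

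Per kilobase of exon, Gpx4 and Gpx3 were the most abundant of the 10 in every group, and Gclc the least. In control hearts Gpx4 averaged 373 FPKM and lay above Gpx3, at 200.2 FPKM, without overlap. Cat, Gpx1, Sod2 and Sod1 followed, with control means from 80.6 down to 59.9 FPKM and ranges that overlapped from each to the next. Nqo1 stood at 37.6 FPKM, Txnrd1 at 6.30 FPKM and Gclc at 2.92 FPKM, with Sod3 between Nqo1 and Txnrd1 and overlapping Txnrd1. These levels depend on the exon length used: merged exons measured 10008 bases for Sod2 and 3970 bases for Sod1, whose coding sequences have 669 and 465 bases, so a level set between such genes is approximate, whereas Gpx3 (1813 bases) and Gpx4 (1724 bases) are close in length.

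Gpx3 (chromosome 11, + strand, 54902453 to 54910377, GRCm38) encodes the glutathione peroxidase that is secreted into the extracellular fluid. Its level was 241, 174, 149, 200.1 and 237 FPKM in control 1 to control 5. In tumour hearts the lowest, median and highest values were 244, 361 and 399 FPKM, and in tumour_swim hearts 297, 309 and 391 FPKM. The lowest tumour library, tumour 5, lay just above the highest control, and the remaining libraries of both tumour-bearing groups lay well clear of it. The means were 200.2 ± 40.2 FPKM in control (SD, n = 5), 344 ± 55.4 in tumour (n = 6) and 321 ± 34.7 in tumour_swim (n = 6), and at least 4213 reads stood behind every value. The log2 fold change of tumour against control was 0.79 ± 0.16 (SE, limma adjusted p = 0.00718), or 0.65 above the median of all genes. Leaving out the 3 libraries that stood apart gave 0.89 (limma adjusted p = 0.00366), and leaving out any library in turn kept the call with adjusted p from 0.00242 to 0.0208. Median-of-ratios scaling ended it at 0.57 (limma adjusted p = 0.119), where the range over the 10 alternatives was 0.000293 to 0.119.

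For tumour_swim against control the log2 fold change of Gpx3 was 0.70 ± 0.16 (SE, limma adjusted p = 0.0442), with 6 of 6 libraries above all controls. This call was near the threshold. It was kept when tumour 5 (0.70, limma adjusted p = 0.0314) or tumour_swim 1 (0.70, limma adjusted p = 0.0137) was left out, and lost when any of the other 15 libraries was, with log2 fold changes from 0.60 to 0.77 and adjusted p up to 0.107. It also ended with median-of-ratios scaling (0.62, limma adjusted p = 0.213), with no filter on low values (0.0653 as the adjusted p) and with a fit of the 2 groups alone (adjusted p = 0.155), while leaving out the 3 libraries that stood apart gave 0.81 (adjusted p = 0.0219). Between tumour_swim and tumour the log2 fold change was -0.09 with a 95% interval of -0.41 to 0.23 (limma adjusted p = 0.957), so a fall to 0.754 of the tumour level or a rise to 1.17 of it lay within the interval.

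**Figure D2:**
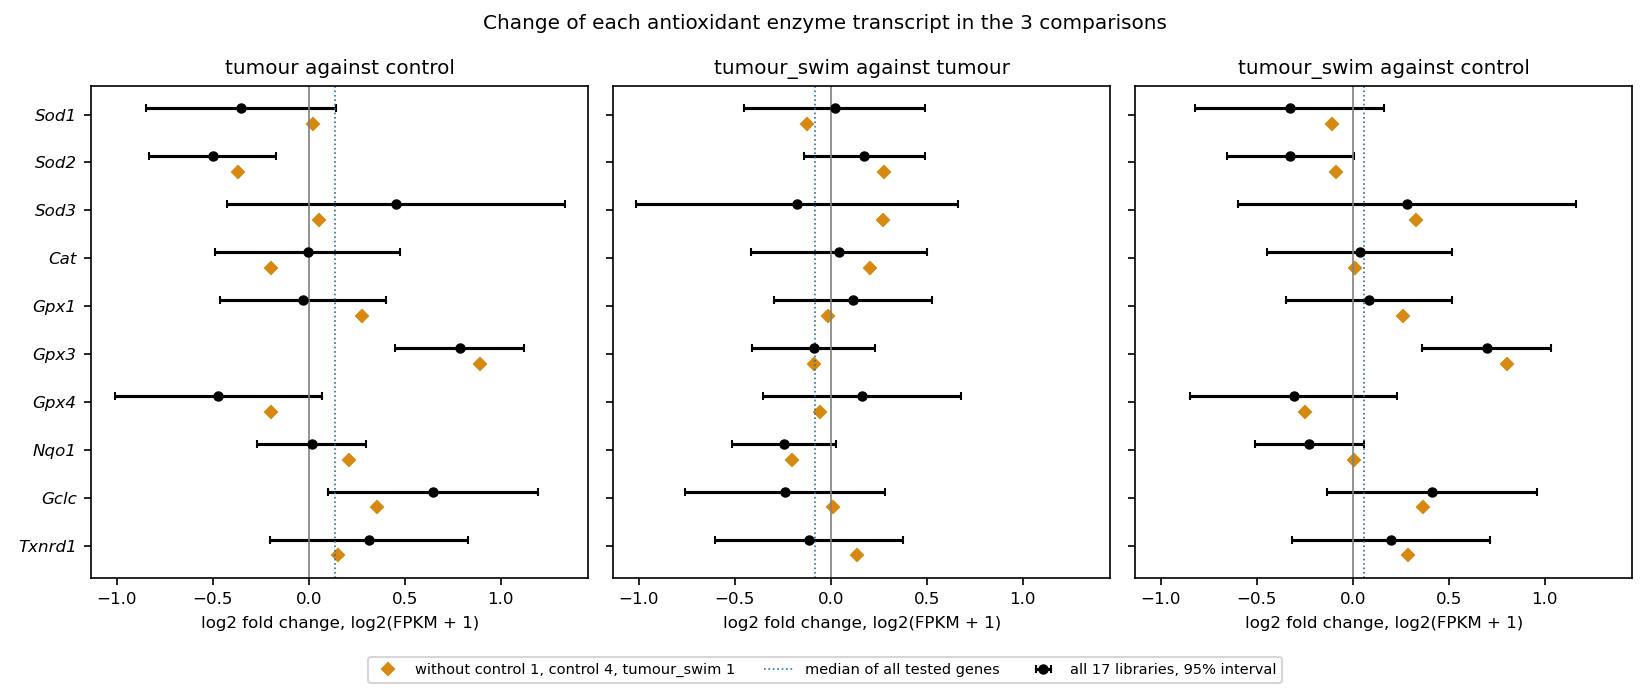
Log2 fold change on the log2(FPKM + 1) scale (horizontal axis) of each antioxidant enzyme gene in the 3 comparisons; black points with bars are the fit to 17 libraries with its 95% interval, diamonds the fit without control 1, control 4 and tumour_swim 1, and the dotted line the median of all tested genes. Gpx3 lies right of 0 in both comparisons with control, at 0.79 and 0.70, and at -0.09 between the tumour-bearing groups.

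Gpx4 (chromosome 10, + strand, 80047166 to 80056439) encodes the peroxidase that reduces lipid hydroperoxides within membranes and protects cells from ferroptosis. Its level was 418, 252, 244, 537 and 412 FPKM in control 1 to control 5, then 196, 256 and 322 FPKM as the lowest, median and highest of tumour, and 228, 251 and 613 FPKM of tumour_swim. The highest value of each of the control and tumour_swim groups belonged to a library that stood apart, control 4 and tumour_swim 1, and the groups overlapped. The log2 fold change of tumour against control was -0.47 ± 0.26 (SE, limma adjusted p = 0.236), and -0.20 (adjusted p = 0.497) without the 3 libraries. For tumour_swim against tumour it was 0.16, which became -0.06 without them, and for tumour_swim against control -0.31, which became -0.25. A processed pseudogene, Gpx4-ps2, is listed at 150.2 ± 46.8 FPKM in control, 112 ± 19.5 in tumour and 132 ± 68.2 in tumour_swim; how reads shared by near-identical copies were assigned is not given in the sources used here, so the level of Gpx4 is uncertain.

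Gpx1 (chromosome 9, + strand, 108338903 to 108340343), the glutathione peroxidase of cytosol and mitochondria, was at 95.9, 53.3, 46.8, 104 and 78.9 FPKM in control 1 to control 5. Tumour values ran from 63.5 through a median of 68.2 to 82.8 FPKM and tumour_swim values from 66.3 through 70.1 to 119.8 FPKM, all groups overlapping. Tumour differed from control by -0.03 ± 0.21 on the log2 scale (SE, limma adjusted p = 0.931), and it took the opposite sign, 0.28, without the 3 libraries. For tumour_swim against control it was 0.08 with and 0.26 without them.

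Gpx3 and Gpx4, the 2 most abundant of these transcripts, changed order between the groups, a description chosen after the values were seen and given with no test. The ratio of Gpx3 to Gpx4 was 0.373 to 0.690 in control hearts, with 0 of 5 above 1. In tumour it was 0.980 to 1.88, above 1 in 5 of 6 libraries, and in tumour_swim 0.516 to 1.70, also above 1 in 5 of 6. The exceptions were tumour 5, at 0.980, and tumour_swim 1, at 0.516. A ratio within a library shows unequal levels of the pair and not which of them moved.

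**Figure D3:**
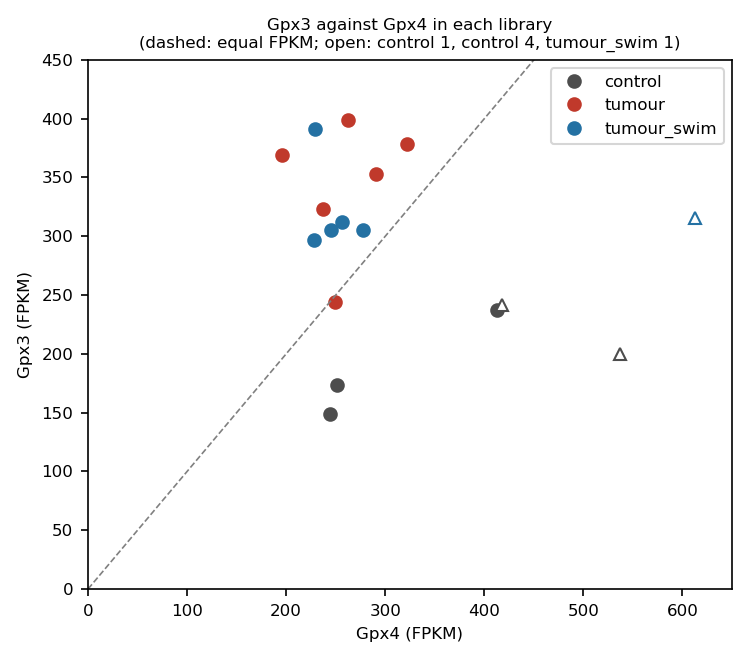
Gpx3 (vertical axis, FPKM) against Gpx4 (horizontal axis, FPKM) in each of the 17 libraries, coloured by group, with equal FPKM as a dashed line and control 1, control 4 and tumour_swim 1 as open triangles. All 5 control libraries lie below the line, and 5 of 6 libraries of each tumour-bearing group lie above it.

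Sod2 (chromosome 17, + strand, 13006846 to 13040063) encodes the manganese superoxide dismutase of the mitochondrial matrix. Its level was 71.9, 53.7, 56.7, 75.9 and 65.6 FPKM in control 1 to control 5. The lowest, median and highest values were 40.2, 42.8 and 55.9 FPKM in tumour and 35.3, 52.1 and 66.1 FPKM in tumour_swim. In 5 of 6 tumour libraries the level was below every control, tumour 5 being the exception, whereas 3 of 6 tumour_swim libraries were. The means were 64.8 ± 9.55 FPKM in control (SD, n = 5), 45.4 ± 5.87 in tumour (n = 6) and 52.0 ± 10.5 in tumour_swim (n = 6). The log2 fold change of tumour against control was -0.50 ± 0.16 (SE, limma adjusted p = 0.0566, unadjusted p = 0.00531), which misses the threshold. Over 10 alternatives the adjusted p ran from 0.0204 to 0.0773, and it passed under median-of-ratios scaling (-0.71, 0.0204), with the length trend removed (-0.70, 0.0257), with array weights (-0.45, 0.0366) and with the 2 groups alone (0.0287 at the same log2 fold change). Leaving out control 2 (-0.56, 0.0399), tumour 5 (-0.56, 0.0457) or tumour_swim 1 (-0.50, 0.0101) also let it pass. With all of control 1, control 4 and tumour_swim 1 left out it was -0.37 (limma adjusted p = 0.0733). For tumour_swim against control the log2 fold change was -0.32 (limma adjusted p = 0.416), and -0.09 without those libraries. Between tumour_swim and tumour it was 0.18, with an interval of -0.14 to 0.49 (limma adjusted p = 0.957). Removal of the length trend used the merged exon length, 10008 bases for Sod2, so the value under that setting depends on it.

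Sod1 (chromosome 16, + strand, 90220754 to 90226329), the copper and zinc superoxide dismutase of the cytosol, was at 76.1, 34.4, 36.6, 89.6 and 62.8 FPKM in control 1 to control 5. It ran from 35.5 through a median of 44.5 to 48.7 FPKM in tumour and from 36.9 through 41.0 to 74.4 FPKM in tumour_swim, and all groups overlapped. Tumour against control gave -0.35 ± 0.24 as the log2 fold change (SE, limma adjusted p = 0.324), and 0.02 without the 3 libraries that stood apart. For tumour_swim against control it was -0.33 with and -0.11 without them. Scaf4 overlaps Sod1 on the opposite strand, and strandedness is not given in the sources used here; its level averaged 3.76 FPKM.

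Sod3 (chromosome 5, + strand, 52363791 to 52371418), the secreted superoxide dismutase bound to the extracellular matrix, was at 8.92, 16.2, 12.9, 5.53 and 16.6 FPKM in control 1 to control 5. The lowest, median and highest values were 12.7, 14.8 and 24.8 FPKM in tumour and 2.13, 19.9 and 21.5 FPKM in tumour_swim. The lowest levels of the control and tumour_swim groups came from control 4 and tumour_swim 1, and 4 of 6 tumour_swim libraries lay above every control. Tumour against control gave 0.46 ± 0.42 as the log2 fold change (SE, limma adjusted p = 0.469), and 0.05 without the 3 libraries. For tumour_swim against control it was 0.28 (limma adjusted p = 0.793), and without tumour_swim 1 it was 0.73 and passed (limma adjusted p = 0.0458). Without all 3 libraries it was 0.33 and did not pass (limma adjusted p = 0.339).

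Cat (chromosome 2, - strand, 103453849 to 103485160) encodes catalase, which splits hydrogen peroxide in peroxisomes. It was at 70.5, 96.5, 105, 59.2 and 71.9 FPKM in control 1 to control 5, from 60.7 through a median of 79.7 to 101 FPKM in tumour, and from 45.4 through 91.2 to 117 FPKM in tumour_swim. The groups lay on top of each other, with a log2 fold change of tumour against control of -0.01 (95% interval -0.49 to 0.47, limma adjusted p = 0.988) and of tumour_swim against tumour of 0.04 (-0.42 to 0.50, adjusted p = 0.979). Without the 3 libraries the log2 fold change against control was -0.19 in tumour (limma adjusted p = 0.559) and 0.01 in tumour_swim, where it was 0.04 with them.

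Gclc (chromosome 9, + strand, 77754535 to 77794485) encodes the catalytic subunit of glutamate-cysteine ligase. It was at 2.13, 3.94, 4.07, 1.49 and 2.95 FPKM in control 1 to control 5, the lowest levels among the 10 genes, with at least 57 reads behind each library's value in the study. Tumour libraries ran from 3.77 through a median of 5.11 to 5.75 FPKM and tumour_swim libraries from 1.13 through 4.59 to 6.24 FPKM. All but tumour 1 in the tumour group, and all but tumour_swim 1 in the tumour_swim group, lay above every control, which is 5 of 6 in each. Tumour against control gave 0.65 ± 0.26 as the log2 fold change (SE, limma adjusted p = 0.123, unadjusted p = 0.0228).

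The adjusted p of Gclc ran from 0.0333 to 0.214 over 10 alternatives. It passed with quantile normalisation (0.44, 0.0417), with array weights (0.56, 0.0333), with the 2 groups alone (0.0358) and when tumour_swim 1 was left out (0.65, 0.0118). With control 4 and control 1 left out as well the log2 fold change was 0.36 (limma adjusted p = 0.0919). For tumour_swim against control it was 0.41 (limma adjusted p = 0.549), and 0.66 (limma adjusted p = 0.0250) without tumour_swim 1. Without all 3 libraries it was 0.37 and did not pass (limma adjusted p = 0.171).

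Txnrd1 (chromosome 10, + strand, 82833951 to 82897712), the thioredoxin reductase of the cytosol, was at 6.06, 8.13, 7.04, 4.22 and 6.05 FPKM in control 1 to control 5. It ran from 6.39 through a median of 8.04 to 10.1 FPKM in tumour and from 2.48 through 8.34 to 10.1 FPKM in tumour_swim, where tumour_swim 1 was the lowest of all 17 libraries. The log2 fold change was 0.31 ± 0.25 (SE, limma adjusted p = 0.397) for tumour and 0.20 (limma adjusted p = 0.748) for tumour_swim against control, the latter 0.45 and past the threshold without tumour_swim 1 (limma adjusted p = 0.0469). Without all 3 libraries these were 0.15 (limma adjusted p = 0.492) and 0.29 (limma adjusted p = 0.281). Gm38560 overlaps Txnrd1 on the opposite strand, with a mean of 1.87 FPKM and a highest value of 3.47 FPKM. Its part in the Txnrd1 level is unknown, since strandedness is not given. Eid3 and Gm47073 also overlap Txnrd1, at means of 0.052 and 0.022 FPKM.

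Nqo1 (chromosome 8, - strand, 107388225 to 107403206) encodes a quinone reductase. It was at 44.5, 28.8, 32.3, 46.6 and 35.7 FPKM in control 1 to control 5, from 34.7 through a median of 36.9 to 42.8 FPKM in tumour and from 27.5 through 31.2 to 36.1 FPKM in tumour_swim. In 5 of 6 tumour_swim libraries, all but tumour_swim 6, the level was below every tumour library. The means were 37.5 ± 2.87 FPKM in tumour (SD, n = 6) and 31.6 ± 2.88 FPKM in tumour_swim (n = 6), which is -0.24 ± 0.13 as a log2 fold change (SE, limma unadjusted p = 0.0774, adjusted p = 0.957). Against control the tumour hearts had a log2 fold change of 0.02 (limma adjusted p = 0.949), which took the opposite sign, -0.19, with median-of-ratios scaling and was 0.21 without the 3 libraries that stood apart. The tumour_swim hearts had -0.23 against control with and 0.01 without them.

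The libraries that stood apart split the 10 genes. In both control 1 and control 4, Sod1, Sod2, Gpx1, Gpx4 and Nqo1 lay above all other controls, Sod3, Cat and Gclc lay below them, and Gpx3 and Txnrd1 were among them. In tumour_swim 1, Sod1, Gpx1 and Gpx4 lay above all other tumour_swim libraries and 6 genes lay below, Sod3 by 2.70 on the log2(FPKM + 1) scale, with Gpx3 among them. The share of all tested genes that lay apart in the same libraries was not counted, so the split cannot be read as particular to these 10. The part of transcript length or RNA quality in these levels was not tested.

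**Figure D4:**
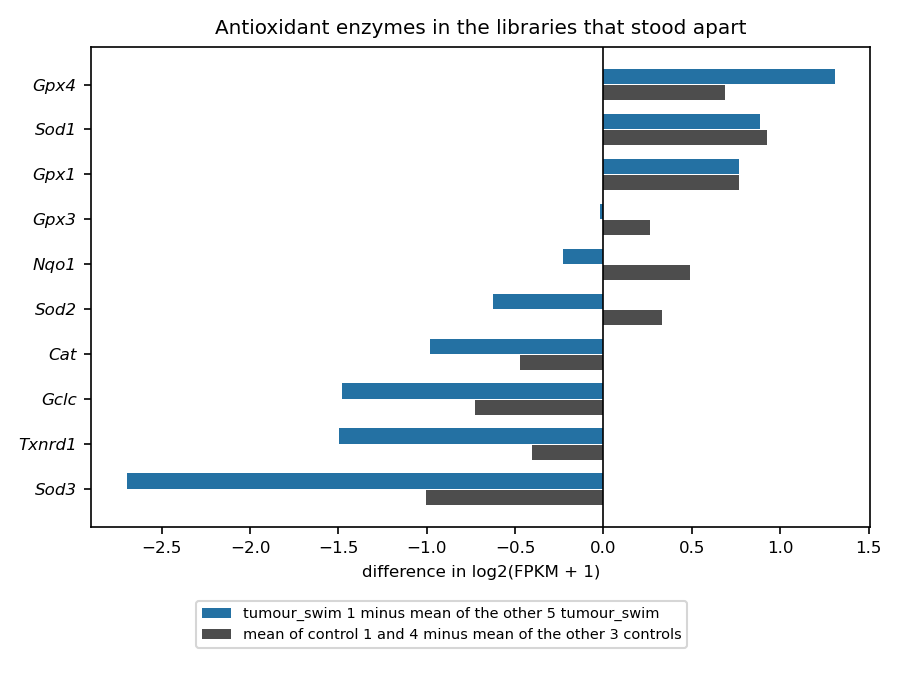
Difference in log2(FPKM + 1) (horizontal axis) between the libraries that stood apart and the other libraries of their own group for each antioxidant enzyme gene; blue bars are tumour_swim 1 and dark bars the mean of control 1 and control 4. Gpx4, Sod1 and Gpx1 are higher in both, Cat, Gclc, Txnrd1 and Sod3 lower in both, and Gpx3 is near 0 in tumour_swim 1 at -0.02.

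Deviations from the group means followed the same split, in sets chosen after the values were seen. Over 17 libraries Pearson's r lay between 0.88 and 0.94 among Sod1, Gpx1 and Gpx4, between 0.65 and 0.95 among Sod3, Cat, Gclc and Txnrd1, and between -0.91 and -0.62 across the sets. Spearman's rho lay between 0.78 and 0.97, between 0.48 and 0.85, and between -0.82 and -0.44 in the same order. Over the 14 libraries without those that stood apart, r was 0.70 to 0.92 within the first set, -0.13 to 0.77 within the other and -0.59 to 0.34 across them, so much of the pattern rests on 3 libraries. The points share library, depth and base composition, and the values are a description with no test.

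The genes whose deviations over the 17 libraries were most like those of Gpx3 were Npc2 (r = 0.86), Sat1 (0.84), Clec4a2 (0.83), Pdlim2 (0.83) and Arpc3 (0.83). Those most like Sod2 were Mrpl16 (0.97), Uqcc1 (0.93), Ak1 (0.93), Atp5a1 (0.92) and Pgk1 (0.92). Both lists come from Pearson correlations of log2(FPKM + 1) after group means were removed, across libraries that share the length trend described above. They hold the highest values among all tested genes, so high values follow in part from the picking. The correlations were not computed without the libraries that stood apart.

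Markers of some other cell types were also higher in tumour than in control hearts. For the counts below, of all tested genes 5.14% were called higher and 3.33% lower in tumour against control. In tumour_swim against control these shares were 0.554% and 0.350%. In whole heart RNA, a change in the number of cells of a type and in RNA per cell cannot be told apart. Fibroblast markers summed to 562 to 1022 FPKM in control, 1107 to 1756 FPKM in tumour and 444 to 1565 FPKM in tumour_swim, with 4 of 7 higher in tumour against control. The medians of these fibroblast sums were 756, 1217 and 1307 FPKM in the same order. Macrophage markers summed to 227 to 458, 356 to 776 and 249 to 538 FPKM, with 4 of 9 higher in tumour against control. Their medians were 388, 564 and 479 FPKM. In tumour_swim against control limma called 0 of 7 fibroblast and 0 of 9 macrophage markers. Erythroid markers summed to 870 to 2265, 2422 to 6557 and 2739 to 7290 FPKM, with 3 of 5 tested higher in both comparisons with control, and neutrophil markers to 1.54 to 3.34, 15.0 to 48.5 and 6.41 to 17.2 FPKM, with 4 of 5 tested higher in tumour and 2 of 5 in tumour_swim against control. Adipocyte markers stayed low at 0.19 to 2.28, 0.19 to 3.13 and 0.11 to 7.36 FPKM, with Plin1 and Lep below 0.5 FPKM in every library. Of endothelial markers 1 of 6 was higher in both comparisons with control, of smooth muscle and pericyte markers 1 of 8 was lower in tumour against control, and of 2 tested skeletal muscle and 2 tested liver markers 0 were called. The part of these cells in the level of Gpx3 was not tested.

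Beyond the 10 genes, 128 genes of 9 lists cover more of the antioxidant system and, in 1 list of 16, sources of oxidants, of which 126 were in the table and 114 were tested. In tumour against control 11 were higher, with the oxidant sources Xdh and Ncf1 among them, and 4 lower, which is 9.65% and 3.51% of those tested beside 5.14% and 3.33% of all genes, and 12 lay above and 4 below without overlap, beside 7.59% and 2.82% of all genes. Their median log2 fold change was 0.03, beside 0.14 for all genes, with 39 of the 114 and 3779 of the 13709 at an unadjusted p under 0.05. In tumour_swim against tumour and in tumour_swim against control limma called 0 of 114, with 5 and 19 at an unadjusted p under 0.05, beside 554 and 1694 of the 13709.

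Glutathione genes were split. Gclm, the modifier subunit that pairs with the product of Gclc, averaged 4.64 ± 1.64 FPKM in the 5 controls and 8.60 ± 0.970 FPKM in the 6 tumour hearts (mean ± SD), higher by 0.81 ± 0.20 on the log2 scale (SE, limma adjusted p = 0.0206) with no overlap, a call lost at 0.71 when control 1 was left out (adjusted p = 0.0688) and at 0.68 when control 4 was (adjusted p = 0.0674). Mgst1, a membrane-bound glutathione transferase, rose from 10.7 ± 2.49 to 22.8 ± 5.86 FPKM (log2 fold change 1.00, limma adjusted p = 0.00612), with median-of-ratios scaling giving 0.79 (adjusted p = 0.0958). Glrx, which removes glutathione from proteins, fell from 11.6 ± 3.13 to 6.23 ± 0.630 FPKM (log2 fold change -0.76, limma adjusted p = 0.00636) with no overlap. Gsr, which recycles oxidised glutathione, had a log2 fold change of -0.06 (limma adjusted p = 0.804). In all, 4 of 22 tested genes of this list rose and 2 fell. The others were Gsta3 (1.12), Ggt5 (0.77) and Glrx5 (-0.70), named after their values were seen, whose calls were lost without any of 4, 14 and 14 libraries. They also ended in 3, 4 and 5 of 10 other settings, among them median-of-ratios scaling for Gsta3 (0.92, limma adjusted p = 0.101) and Glrx5 (-0.90, adjusted p = 0.0854) and no filter on low values for Ggt5 (adjusted p = 0.0949).

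Thioredoxin genes included 1 higher and 2 lower of 19. Txnip, which binds and inhibits thioredoxin, averaged 109 ± 30.3 FPKM in the 5 controls and 231 ± 37.1 FPKM in the 6 tumour hearts (mean ± SD), higher by 1.11 ± 0.25 on the log2 scale (SE, limma adjusted p = 0.0116) with no overlap. Its tumour_swim level was 138 ± 59.1 FPKM (n = 6), and the log2 fold change of tumour_swim against tumour was -0.81 (limma unadjusted p = 0.00283, adjusted p = 0.957). That was the lowest value among the 114 tested genes of the further lists in that comparison, so its size follows in part from the picking. Msra, a methionine sulfoxide reductase, fell from 10.7 ± 2.53 to 6.27 ± 0.829 FPKM (log2 fold change -0.67, limma adjusted p = 0.00974) with no overlap. Txn2, the mitochondrial thioredoxin, had a log2 fold change of -0.48 (limma adjusted p = 0.0420), a call that remained without control 2, control 3, tumour 5 or tumour_swim 1 and was lost without any of the other 13 libraries, and at -0.31 without the 3 that stood apart (adjusted p = 0.101) and at -0.69 with median-of-ratios scaling (adjusted p = 0.0804). Txn1, the cytosolic thioredoxin, had -0.58 (limma adjusted p = 0.145).

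The list of other Nrf2 targets leaves out Nqo1, Gclc and Txnrd1. Targets among the glutathione, thioredoxin and NADPH genes were counted in those lists, so it is not a full tally of Nrf2 targets. In it 2 of 15 tested genes were called higher. Of these, Aldh3a1 was called at a low level and in few settings. Hmox1, the inducible haem oxygenase, averaged 6.36 ± 1.25 FPKM in the 5 controls and 14.8 ± 2.98 FPKM in the 6 tumour hearts (mean ± SD), higher by 1.09 ± 0.28 on the log2 scale (SE, limma adjusted p = 0.0229) with no overlap. That call was lost without control 4 (1.01), tumour 3 (1.09) or tumour 4 (1.05), with adjusted p of 0.0668, 0.0506 and 0.0536. The other, Aldh3a1, an aldehyde dehydrogenase, averaged 0.274 FPKM in control and 0.966 FPKM in tumour (log2 fold change 0.58, limma adjusted p = 0.0459), a call that remained without control 2, tumour 2, tumour_swim 1, tumour_swim 4 or tumour_swim 5 and was lost without any of the other 12. It was also lost in 7 of 9 other settings, with an adjusted p of up to 0.130 (0.43, quantile normalisation) and of 0.0917 without the 3 libraries that stood apart (0.57). Of 11 tested regulators 0 passed in limma, with 2 at an unadjusted p under 0.05. Nfe2l2, which encodes Nrf2 itself, had a log2 fold change of 0.26 (limma adjusted p = 0.479) and Keap1, its inhibitor, 0.01 (adjusted p = 0.976). Sqstm1, a cargo receptor of autophagy that binds Keap1, had 0.56 (limma adjusted p = 0.113).

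The remaining lists held 4 calls, all higher in tumour. Xdh, the xanthine dehydrogenase whose oxidase form releases superoxide, averaged 10.8 ± 5.10 FPKM in the 5 controls and 32.8 ± 8.59 FPKM in the 6 tumour hearts (mean ± SD), higher by 1.60 ± 0.39 on the log2 scale (SE, limma adjusted p = 0.0172), lost without control 4 (1.34, adjusted p = 0.0558). Ncf1, a cytosolic subunit of the phagocyte NADPH oxidase, rose from 1.31 to 2.98 FPKM (log2 fold change 0.77, limma adjusted p = 0.0119). G6pdx, which supplies NADPH through the pentose phosphate pathway, rose from 2.56 to 5.30 FPKM (log2 fold change 0.81, limma adjusted p = 0.0141), 1 of 9 NADPH genes. Selenop, the secreted carrier of selenium, went from 116 ± 6.73 to 175 ± 22.7 FPKM (log2 fold change 0.57, limma adjusted p = 0.0420) with no overlap. Its call remained without tumour 5, tumour_swim 1, tumour_swim 3 or tumour_swim 5 and was lost without any of the other 13. Median-of-ratios scaling gave 0.36 for it (limma adjusted p = 0.106), and its adjusted p was 0.0639 with no filter on low values.

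Ccs, the copper chaperone of Sod1, had a log2 fold change of -0.23 (limma adjusted p = 0.456) in tumour against control, which became 0.08 without the 3 libraries that stood apart. Among 11 other selenoproteins limma called 0, with 1 at an unadjusted p under 0.05, and the one with the smallest p was Dio2, an iodothyronine deiodinase (0.45, adjusted p = 0.152). The 2 tested glutathione peroxidases outside the 10 genes gave 0 calls in limma, with 0 at an unadjusted p under 0.05, Gpx8 having -0.11 (adjusted p = 0.743). Glrx, Txnip, Msra, G6pdx and Ncf1 kept their calls under all 10 alternative settings and all 17 omissions of a library.

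**Figure D5:**
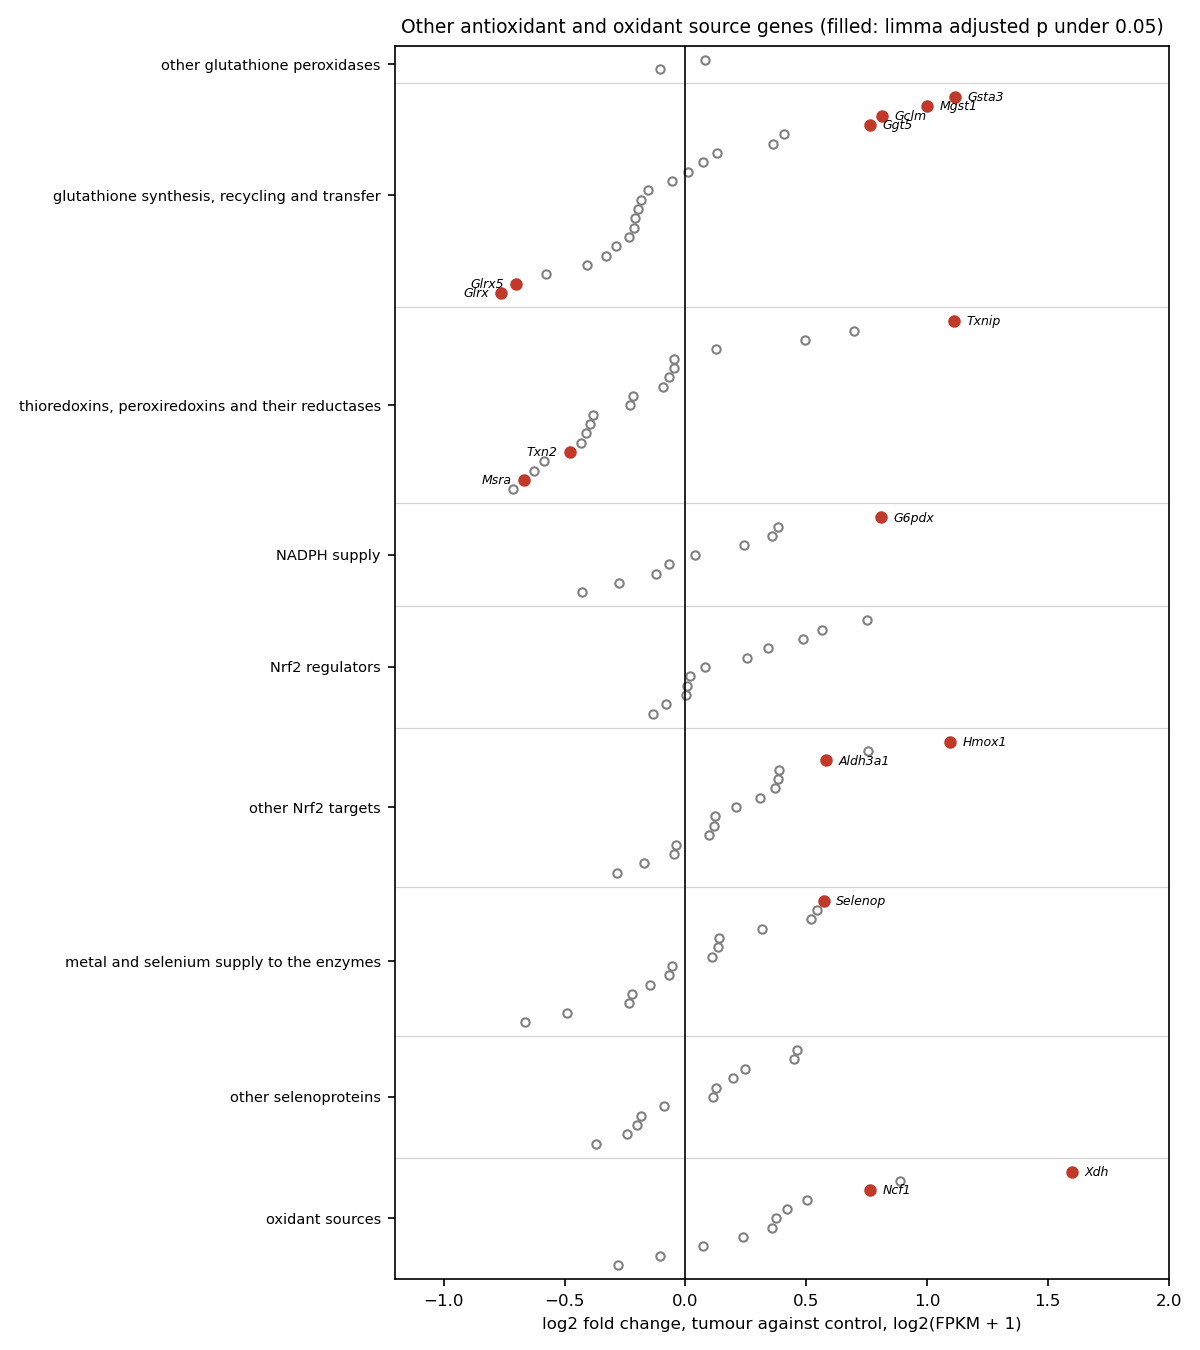
Log2 fold change of tumour against control on the log2(FPKM + 1) scale (horizontal axis) for the 114 tested genes of 9 further lists of antioxidant and oxidant source genes, 1 point per gene, filled and named where the limma adjusted p was under 0.05. The 11 filled points on the right run up to Xdh at 1.60, and the 4 on the left down to Glrx at -0.76.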

How the data were processed

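Total RNA of 17 heart libraries was extracted with TRIzol and made into libraries with a NEBNext Ultra RNA kit, per the labels' protocols. Tools named by the submitters' processing notes are fastp, FastQC and bcl2fastq, with mm10 as the build, and for the aligner, the counting, the annotation and the strand setting these sources give nothing. The deposited values, made by the authors, were taken as FPKM from the values themselves: multiplied by exon lengths merged from GENCODE M21, each column reached 99.0% to 99.7% of the sum that FPKM would give, and 98.6% to 99.0% of low values lie within 0.1 of a whole read. GENCODE M21 held 28268 of the IDs and lacked 372, and it supplied the gene positions (GRCm38), since the table's own positions did not equal it for any of the 10 genes. Depth had a median of 15.8 M reads (13.3 to 19.7 M), and read numbers cover counting error only. No libraries of a group agreed within sampling noise (smallest chi-square per degree of freedom 11.5 over 40 pairs).

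A limma-trend model (limma 3.58.1, R 4.3.3, two-sided) was fitted to log2(FPKM + 1) of the 13709 genes whose mean reached 0.5 FPKM in any group, with group as the only factor, 14 residual degrees of freedom and Benjamini-Hochberg adjustment at 0.05 within each comparison. Fold changes on this scale understate the change of low genes. The model was tested on simulated data with independent normal noise for each gene. Those data held no length trend and no libraries that stood apart, so that test does not cover such features. The 10 genes, the further lists and the markers were chosen with earlier results of these data known. All 10 genes were named, and from each further list up to 3 genes past the threshold with the smallest adjusted p, or the gene with the smallest p in tumour against control, besides Nfe2l2, Keap1, Hmox1, Gclm, Gsr, Txn1 and Ccs. Alternatives covered scaling, pseudocount (0.1), filters, array weights, samples in the fit, a length trend, replicate numbers and leaving out libraries. Python 3.11.15, numpy 2.4.6, pandas 2.3.3 and matplotlib 3.10.9 were used for the rest.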

Additional observations from a re-analysis of the deposited data

Results flagged for a closer look

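Within groups of 5 or 6 libraries, 8 of the values of the 10 antioxidant enzyme genes lay far from the rest of their group, by a gap that took up more of the group's range than Dixon's 95% critical value allows. Chance flags about 1 in 20 groups, and 30 gene-by-group sets were examined, which share libraries and are not independent. How often other genes were flagged was not counted, so the number cannot be read as particular to these 10. Of the 8 values 6 came from tumour_swim 1, a library that also stood apart in the share of mitochondrial reads and in its length trend. In it Sod1 was high at 74.4 FPKM, Gpx1 at 119.8 FPKM and Gpx4 at 613 FPKM, while Sod3 was low at 2.13 FPKM, Gclc at 1.13 FPKM and Txnrd1 at 2.48 FPKM. The others were Gpx3 in tumour_swim 3, high at 391 FPKM, and Sod3 in tumour 6, high at 24.8 FPKM.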

How the results depend on the processing

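Of the 10 genes, those called in tumour against control numbered 0 higher under median-of-ratios scaling and 2 under quantile normalisation, array weights and the 2 groups alone, and 1 lower under median-of-ratios scaling, array weights, removal of the length trend and the 2 groups alone; without single libraries they were 1 to 2 higher and 0 to 1 lower. In tumour_swim against control they numbered 0 higher under median-of-ratios scaling, no filter and the 2 groups alone, and 0 to 4 without single libraries, the highest without tumour_swim 1. With the replicate block this count was also 0 (Gpx3 0.70, limma adjusted p = 0.127), and in tumour against control it ended the calls of Txn2 (-0.48, adjusted p = 0.0753), Selenop (0.56, 0.0817), Aldh3a1 (0.54, 0.0818) and Ggt5 (0.71, 0.0781). The shared replicate numbers did not pair the libraries: 8 of 16 same-numbered pairs correlated above 0.1, between -0.67 and 0.68, and the own number was the best match in 8 of 32 cases. Further-list calls in tumour against control were 7 higher with no filter, and 5 to 24 higher and 2 to 10 lower without single libraries. In tumour_swim against control they were 1 higher and 1 lower under median-of-ratios scaling and quantile normalisation, 4 and 1 with array weights, 2 higher without the 3 libraries that stood apart and 1 higher with the length trend removed, and 0 to 13 higher and 0 to 3 lower without single libraries. Over the 10 settings other than leaving out single libraries, all tested genes gave 473 to 1510 higher (704 as reported) and 342 to 1020 lower (457) in tumour against control, 36 to 656 higher (76) and 12 to 186 lower (48) in tumour_swim against control, and 0 to 31 higher and 0 to 12 lower (0 and 0) in tumour_swim against tumour. Without single libraries these were 315 to 2642 higher and 209 to 1024 lower in tumour against control, 34 to 1842 higher and 18 to 366 lower in tumour_swim against control, each highest without tumour_swim 1, and 0 and 0 in tumour_swim against tumour.

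Log2 fold changes of genes that were not called crossed 0 in some settings. In tumour against control these were Cat (0.14, 0.11 and 0.023 under quantile normalisation, length trend and replicate block, -0.11 to 0.096 without single libraries), Gpx1 (0.17, 0.016, 0.28 and 0.22 under quantile normalisation, array weights, without the 3 libraries and length trend, -0.19 to 0.097), Sod1 (0.020 without the 3 libraries), Nqo1 (-0.19 under median of ratios and -0.023 with the replicate block, -0.072 to 0.097), Ccs (0.076 without the 3 libraries), Gsr (0.044 under length trend), Gpx8 (0.016, 0.24 and 0.17 under array weights, without the 3 libraries and length trend, -0.26 to 0.073) and Keap1 (-0.19, -0.074, -0.051, -0.058, -0.031 and -0.020 under median of ratios, quantile normalisation, array weights, without the 3 libraries, length trend and replicate block, -0.065 to 0.060). In tumour_swim against tumour these were Sod1 (-0.023, -0.091 and -0.13 under quantile normalisation, array weights and without the 3 libraries, -0.13 to 0.073), Sod3 (0.27 under array weights and 0.27 without the 3 libraries, -0.29 to 0.27), Gpx1 (-0.012 without the 3 libraries, -0.012 to 0.16), Gpx3 (0.052 under median of ratios), Gpx4 (-0.0093 under array weights and -0.056 without the 3 libraries, -0.056 to 0.23), Gclc (0.0098 without the 3 libraries, -0.34 to 0.0098), Txnrd1 (0.14 under array weights and without the 3 libraries, -0.20 to 0.14) and Cat (-0.063 to 0.21 without single libraries). In tumour_swim against control these were Cat (-0.037 under median of ratios, -0.069 to 0.20), Gpx1 (-0.070 to 0.21 without single libraries) and Nqo1 (0.0087 without the 3 libraries). The causes were not tested. Groups held 5 or 6 libraries, with as few as 57 reads behind a value of Gclc. For genes that were not called, changes within the printed intervals remain possible.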
